A study of Homo sapiens with 8 samples.

Results

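The genes described here are 10 solute carriers that move neutral amino acids, for many of them serine or glycine, across the plasma and lysosomal membranes: SLC1A4, SLC1A5, SLC6A9, SLC38A1, SLC38A2, SLC38A4, SLC38A5, SLC36A1, SLC36A4 and SLC43A1. They were chosen by gene symbol, with earlier results of these data known, and all 10 are listed among the 57884 genes of both deposited tables. The cells sequenced were hTERT-RPE1, a line from human retinal pigment epithelium that telomerase has made immortal, after 8 h in medium lacking serine and glycine or in complete medium, whose libraries carry the label 0h. The 4 groups were ATF3(-/-) cells in serine/glycine-free medium, ATF3(-/-) cells in complete medium, wild-type cells in serine/glycine-free medium and wild-type cells in complete medium, with 2 libraries each. The 2 libraries of a group come from 2 independent experiments, called batches, and p-values rest on these. Neither the ATF3 allele nor the number of clones is described in the sources, and that genotype is called knockout-labelled below. The series' text can be read as 8 h for both media, and whether the complete-medium cultures were washed is not given, so effects of the medium, of time and of the wash cannot be told apart.

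Cells that lose extracellular serine and glycine depend on synthesis and on carriers that scavenge or exchange what is left. Serine and other small neutral amino acids enter through the exchangers of the SLC1 family and through the sodium-coupled SLC38 carriers, and glycine through SLC6A9. Some amino acids leave lysosomes through carriers of the SLC36 family. Many carriers of this kind are transcriptional targets of ATF4, a factor whose translation increases when uncharged tRNA accumulates, and ATF3 is a related stress-induced factor.

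Expression is in FPKM, fragments scaled to transcript length and to the mapped total, so levels of different genes can be set side by side. The 2 tables were normalized separately, and all comparisons were made within a batch. Protein-coding genes held 11.3% to 15.5% of the FPKM sum of a library. Absolute depth is unknown; the commonest ratio between low values, which only 2.55% to 6.19% of the genes compared shared, put the libraries at 0.889 to 1.21 times the depth of the wild-type complete library of their batch. ATF3 stood at 4.45 FPKM in serine/glycine-free and 3.38 in complete medium in the knockout-labelled libraries of batch 1, against 6.46 and 3.47 in wild type. In batch 2 it stood at 57.3 and 20.8 in the knockout-labelled libraries, against 18.0 and 3.65 in wild type, so its RNA does not set the genotypes apart as labelled. Of 9 retinal pigment epithelium markers, 4 reached 1 FPKM in any library, OTX2 was listed at 0 in all 8 and RPE65 did not exceed 0.695 FPKM; the summed level was 4.5 to 15.3 FPKM. Summed mesenchymal markers (6 genes) were 175 to 184 FPKM in the knockout-labelled libraries of batch 2 against 681 to 755 in wild type, and 1593 to 1776 against 1292 to 1323 in batch 1. Summed epithelial markers (7 genes) were 559 to 711 against 143 to 249 in batch 2, and 223 to 233 against 316 to 358 in batch 1. The sums are carried by abundant genes such as VIM and KRT8. Some markers went against their sum in both media of batch 1, with FN1 and THY1 lower and CLDN4 higher in knockout-labelled cells. Of 4 immune markers 0 reached 1 FPKM. The knockout-labelled libraries of batch 2 thus stand apart. The batches also differ in both genotypes: SPARC was at 343 to 429 FPKM in the 4 libraries of batch 1 and at 0.0903 to 1.66 in those of batch 2, and THY1 at 34.9 to 66.0 and at 0 to 0.298. The part of either in the values below was not tested.

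The carriers covered a wide range of levels, given here as medians over libraries of 2 separately normalized tables. SLC38A2 was the most abundant in 7 of 8 libraries, at a median of 236 FPKM, followed by SLC1A5 at 76.7, SLC38A1 at 40.1 and SLC1A4 at 9.81. SLC36A4 (7.64), SLC6A9 (6.52), SLC43A1 (6.31) and SLC36A1 (3.77) formed a lower tier, and SLC38A5 (0.378) and SLC38A4 (0.0316) were barely detected. Neighbours in that order were often not separated: SLC1A5 exceeded SLC38A1 in 4 of 4 libraries of batch 1 and 0 of 4 of batch 2, SLC1A4 exceeded SLC36A4 likewise in 4 and 0, and SLC6A9 exceeded SLC43A1 in 2 of 4 libraries of either batch. The ratio of SLC38A1 to SLC1A5 was 0.154 to 0.230 in batch 1 and 1.32 to 1.83 in batch 2, a difference between the batches seen in both genotypes and both media. SLC38A1, SLC38A2 and SLC38A4 lie in that order on chromosome 12, 88.2 kb and 391 kb apart in hg19, and their levels spanned the whole range. Whether other genes lie between them was not examined.

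**Figure D1:**
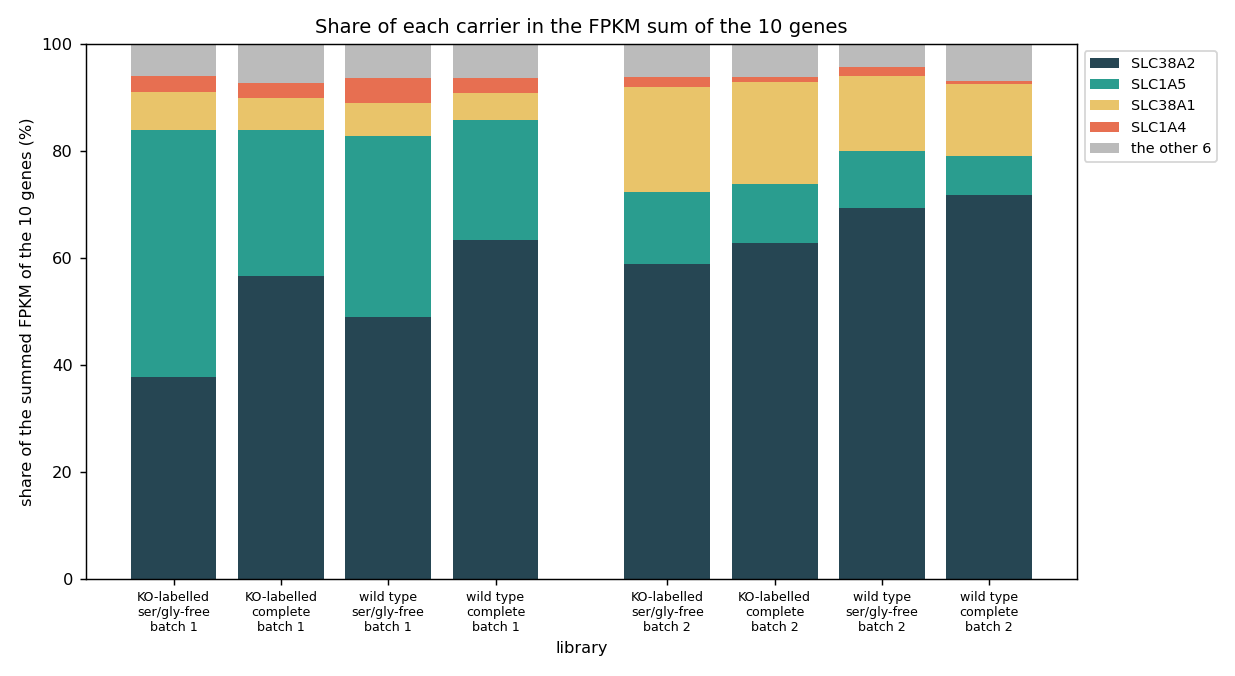
Share of each carrier in the summed FPKM of the 10 genes, in percent, for each of the 8 libraries (1 bar each, batch 1 on the left, batch 2 on the right). SLC38A2 held 37.7% to 71.8% of the sum, SLC1A5 22.4% to 46.2% in batch 1 and 7.29% to 13.4% in batch 2, and SLC38A1 5.15% to 7.11% in batch 1 and 13.4% to 19.7% in batch 2.

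The first question is how these carriers respond to 8 h without serine and glycine. In every one of the 4 pairs of libraries, 6 of the 9 members tested were higher in serine/glycine-free than in complete medium, namely SLC1A4, SLC1A5, SLC6A9, SLC38A1, SLC38A2 and SLC43A1. Over all 17994 genes tested, 14.6% were higher in all 4 pairs, and 16.7% of the 13080 protein-coding ones. No member was lower in all 4, against 11.4% and 13.3%. Since the members were chosen with earlier results of these data known, such counts describe them and are no test. Averaged over the genotypes, 6 were higher in both batches, against 30.8% of all genes, and 2 lower (SLC36A1 and SLC38A5), against 26.2%. SLC38A5 passed the filter only through 2 complete-medium libraries. It was tested only because it was high on that side, so its direction is no support for a lower level. The summed FPKM of the 10 genes was 412 in serine/glycine-free against 263 in complete medium in the knockout-labelled libraries of batch 1 and 606 against 378 in those of batch 2. In wild type the sum was 480 against 300 in batch 1 and 786 against 372 in batch 2. Bulk RNA does not tell a change in RNA per cell from a change in the share of cells that express a gene.

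**Figure D2:**
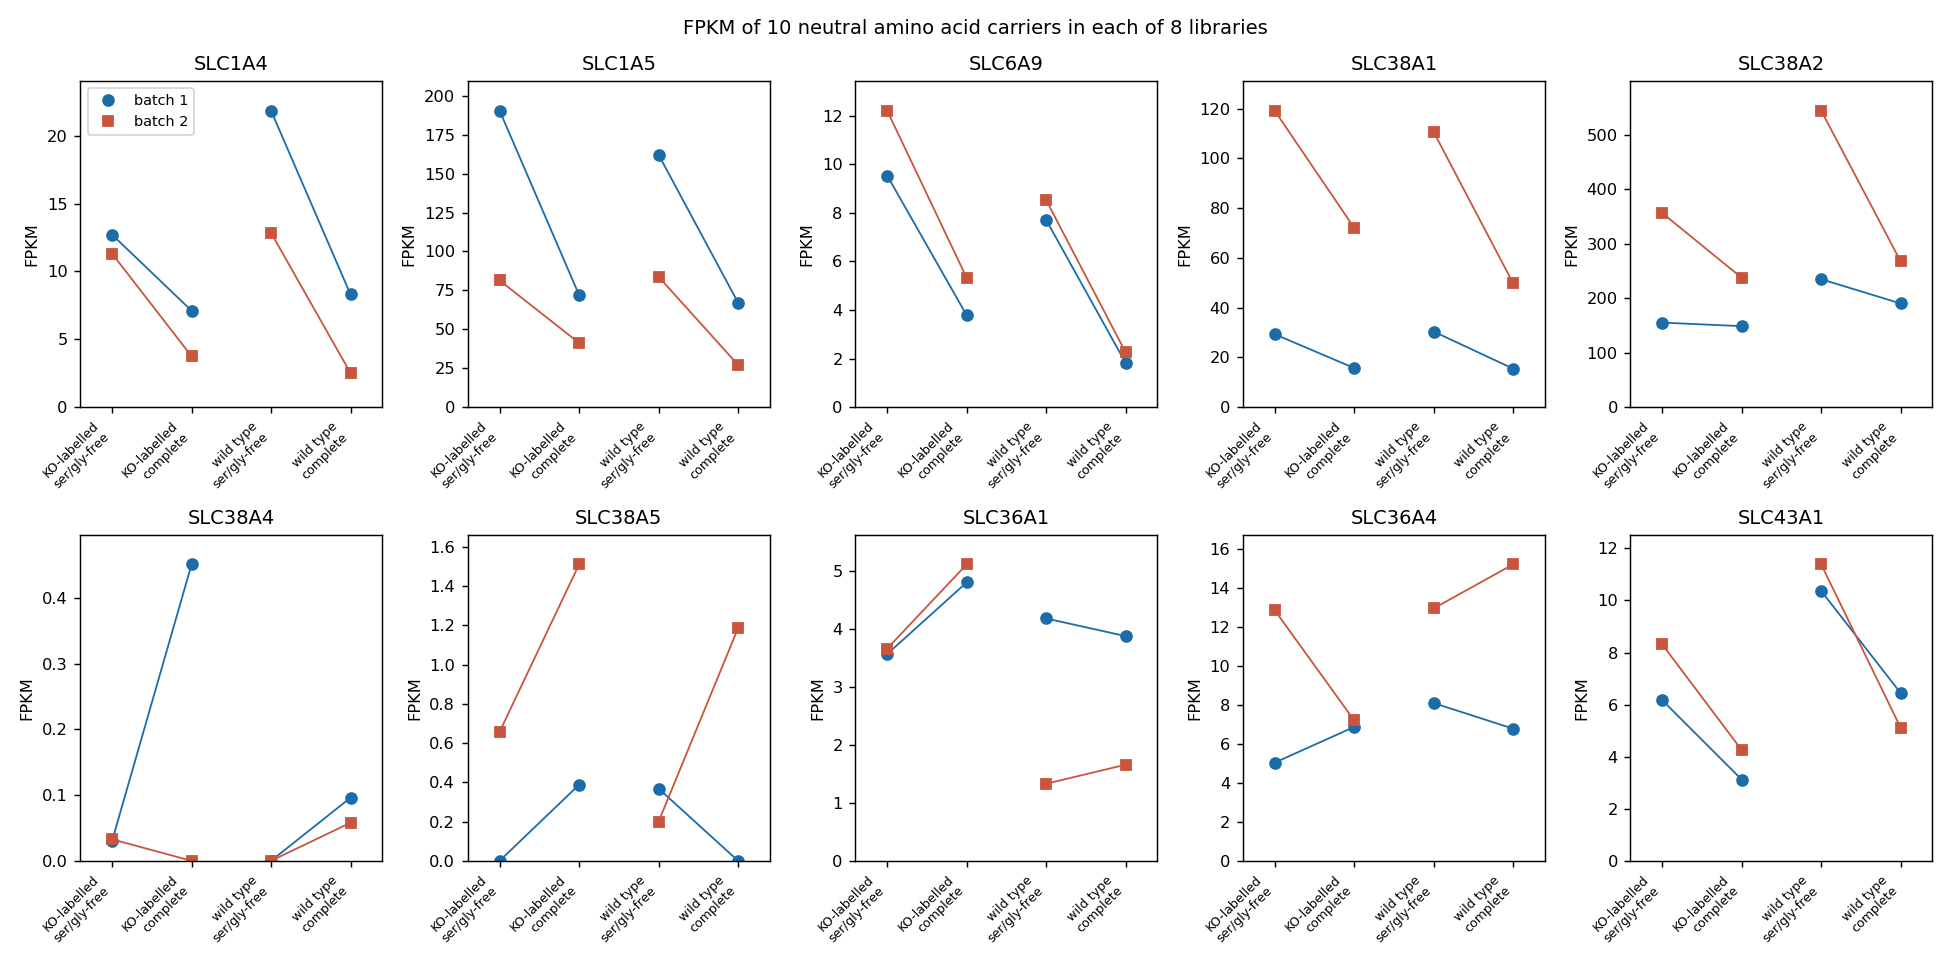
FPKM of each of the 10 carriers (1 panel each, linear axes from 0) in the 4 groups, with 1 point per library, circles for batch 1 and squares for batch 2, and lines joining the 2 media of a genotype and batch. In the panels of SLC1A4, SLC1A5, SLC6A9, SLC38A1, SLC38A2 and SLC43A1 every line ends lower on the complete-medium side, while the lines of SLC36A1, SLC36A4, SLC38A4 and SLC38A5 run in both directions.

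SLC1A5 (ENSG00000105281, hg19 chromosome 19, 47222764 to 47291851), also called ASCT2, exchanges glutamine, serine and other neutral amino acids. In knockout-labelled cells it stood at 190 FPKM in serine/glycine-free against 72.0 in complete medium in batch 1, and at 81.4 against 41.2 in batch 2. In wild type it stood at 162 against 67.1 in batch 1 and at 83.7 against 27.1 in batch 2. Within each batch both serine/glycine-free libraries thus lay above both complete ones, with folds of 1.98 to 3.09. SLC1A5 rose over the mean of both genotypes, with a log2 fold change of 1.30 ± 0.12 (SE, n = 4 libraries per medium; limma, Benjamini-Hochberg adjusted p = 0.0417), the only member to pass. The background is small, since 20 genes (0.111%) were called higher and 4 (0.0222%) lower in that comparison. The call was lost in 17 of 19 alternatives, among them leaving out any 1 of the 8 libraries (adjusted p = 0.0997 to 0.293), while the log2 fold change stayed between 1.21 and 1.41. Without both knockout-labelled libraries of batch 2, which leaves 1 knockout-labelled library per medium, it was 1.41. Its listed locus is shared with other genes, whose reads may not have been fully told apart.

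SLC1A4 (ENSG00000115902, chromosome 2, 65215611 to 65250999), or ASCT1, exchanges alanine, serine, cysteine and threonine. Its level in knockout-labelled cells was 12.7 FPKM in serine/glycine-free against 7.11 in complete medium in batch 1 and 11.3 against 3.75 in batch 2. Wild-type cells had 21.9 against 8.30 in batch 1 and 12.8 against 2.51 in batch 2. The folds ran from 1.79 in knockout-labelled cells of batch 1 to 5.12 in wild type of batch 2, the widest spread among the 6 carriers. The log2 fold change over both genotypes was 1.35 ± 0.22 (adjusted p = 0.189).

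SLC6A9 (ENSG00000196517, chromosome 1, 44457031 to 44497139), or GlyT1, imports glycine with sodium and chloride. It stood at 9.54 FPKM in serine/glycine-free against 3.78 in complete medium in knockout-labelled cells of batch 1, and at 12.2 against 5.33 in those of batch 2. The wild-type values were 7.71 against 1.82 in batch 1 and 8.52 against 2.25 in batch 2. The folds within a genotype were close in the 2 batches, 2.52 and 2.29 in knockout-labelled cells and 4.24 and 3.78 in wild type. Over both genotypes the log2 fold change was 1.34 ± 0.15 (adjusted p = 0.0659), and with protein-coding genes only the adjusted p was 0.0320. The locus also holds CCDC24.

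SLC38A1 and SLC38A2 (ENSG00000111371, chromosome 12, 46576846 to 46663800, and ENSG00000134294, chromosome 12, 46751972 to 46767561), or SNAT1 and SNAT2, import small neutral amino acids with sodium. SLC38A1 stood at 29.3 FPKM in serine/glycine-free against 15.7 in complete medium in knockout-labelled cells of batch 1 and at 119 against 72.1 in those of batch 2. Wild-type cells had 30.4 against 15.5 in batch 1 and 111 against 49.8 in batch 2. These folds of 1.65 to 2.22 were alike in size although the level listed in batch 2, whose table was normalized separately, was several times higher. The log2 fold change of SLC38A1 was 0.91 ± 0.12 (adjusted p = 0.116, and 0.0495 with protein-coding genes only).

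SLC38A2 is known in other cells as a carrier that amino acid starvation induces. Here its level was 155 FPKM in serine/glycine-free against 149 in complete medium in knockout-labelled cells of batch 1 and 356 against 237 in those of batch 2. Its wild-type values were 235 against 190 in batch 1 and 544 against 267 in batch 2. The batch 1 folds were 1.04 and 1.23 and the batch 2 folds 1.5 and 2.03, so that SLC38A2, the member with the highest median level, had the smallest fold of the 6 in every pair. Its log2 fold change was 0.49 ± 0.16 (adjusted p = 0.399), with batch values of 0.18 and 0.80. Its share of the 10-gene sum was lower in serine/glycine-free than in complete medium in all 4 pairs, at 37.7% against 56.5% in knockout-labelled cells and 48.9% against 63.4% in wild type of batch 1. In batch 2 the shares lay closer, at 58.8% against 62.8% in knockout-labelled cells and 69.3% against 71.8% in wild type.

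SLC43A1 (ENSG00000149150, chromosome 11, 57252007 to 57283259), or LAT3, is a sodium-independent carrier of large neutral amino acids such as leucine. It stood at 6.17 FPKM in serine/glycine-free against 3.12 in complete medium in knockout-labelled cells of batch 1, and at 8.31 against 4.26 in those of batch 2. Values in wild type were 10.4 against 6.44 in batch 1 and 11.4 against 5.11 in batch 2. The folds of 1.61 to 2.23 were of the size of those of SLC38A1, with a log2 fold change of 0.81 ± 0.17 (adjusted p = 0.277).

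The SLC36 carriers did not share this direction. SLC36A1 (ENSG00000123643, chromosome 5, 150816607 to 150871942), or PAT1, moves glycine, alanine and proline and is found on lysosomes. It stood at 3.57 FPKM in serine/glycine-free against 4.81 in complete medium in knockout-labelled cells of batch 1, 3.66 against 5.12 in those of batch 2, 4.18 against 3.88 in wild type of batch 1 and 1.33 against 1.66 in wild type of batch 2. It was thus lower without serine and glycine in 3 of 4 pairs, with a log2 fold change of −0.21 ± 0.27 and a 95% interval of −0.88 to 0.46. SLC36A4 (ENSG00000180773, chromosome 11, 92877341 to 92931130), or PAT4, stood at 5.03 against 6.86 and 12.8 against 7.20 in knockout-labelled cells of batches 1 and 2. Wild-type values were 8.09 against 6.77 and 12.9 against 15.2, so each genotype went both ways, and its interval over both genotypes was −0.45 to 0.64.

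SLC38A5 (ENSG00000017483, chromosome X, 48316920 to 48328644), or SNAT5, and SLC38A4 (ENSG00000139209, chromosome 12, 47158546 to 47226191), or SNAT4, were too low here for a response to be read. SLC38A5 was listed at 0 and 0.658 FPKM in serine/glycine-free against 0.388 and 1.51 in complete medium in knockout-labelled cells of batches 1 and 2. In wild type it was listed at 0.368 and 0.200 against 0 and 1.19. It passed the filter through its complete-medium libraries of batch 2, the only 2 of 8 at 1 FPKM or more. SLC38A4 was at or below 0.451 FPKM in all 8 libraries, listed at 0 in 3, and was not tested.

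**Figure D3:**
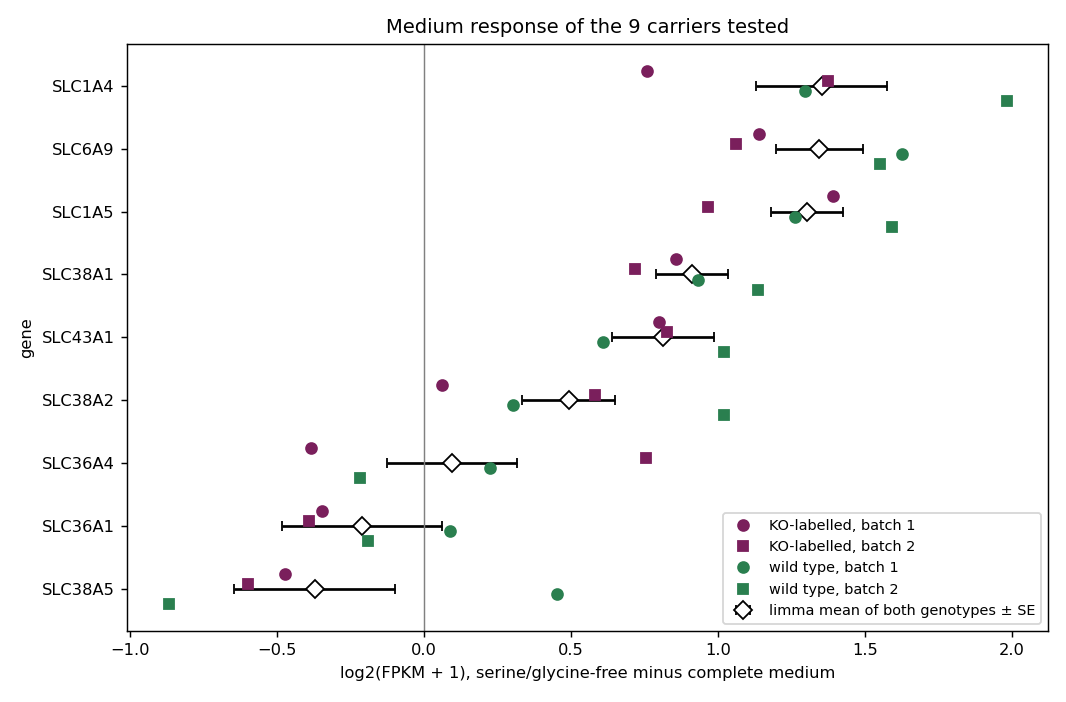
Difference of log2(FPKM + 1) between serine/glycine-free and complete medium for the 9 members tested, 1 point per pair of libraries, with the limma estimate over both genotypes ± SE as open diamonds. The points of SLC1A4, SLC6A9, SLC1A5, SLC38A1, SLC43A1 and SLC38A2 all lie right of 0, and those of SLC36A4, SLC36A1 and SLC38A5 lie on both sides.

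Taken by genotype, 0 members passed in either comparison by limma. In knockout-labelled cells 5 of 9 were higher at an unadjusted p under 0.05, against 3.34% of all genes tested, and 0 were lower, against 2.25%. In wild type 6 of 9 were higher, against 3.72%, and 0 lower, against 1.92%. In both batches of knockout-labelled cells 6 were higher, against 27.1% of all genes, and 2 lower, against 25.1%. These 2 were SLC36A1 and SLC38A5, the latter tested only through complete-medium libraries. In both batches of wild type 6 were higher, against 29.9%, and 0 lower, against 24.6%. At the adjusted threshold 0.0111% of all genes were called higher and 0.00556% lower in knockout-labelled cells, and 0.0389% and 0.0167% in wild type. The median log2 fold change over the 9 members was 0.79 in knockout-labelled cells and 0.81 in wild type, beside 0.0056 and 0.023 over all genes tested. The leading members were SLC1A5 at 1.18 ± 0.17 in knockout-labelled cells (adjusted p = 0.386) and SLC1A4 at 1.64 ± 0.31 (adjusted p = 0.473), SLC6A9 at 1.59 ± 0.21 (0.192) and SLC1A5 at 1.43 ± 0.17 (0.160) in wild type.

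**Figure D4:**
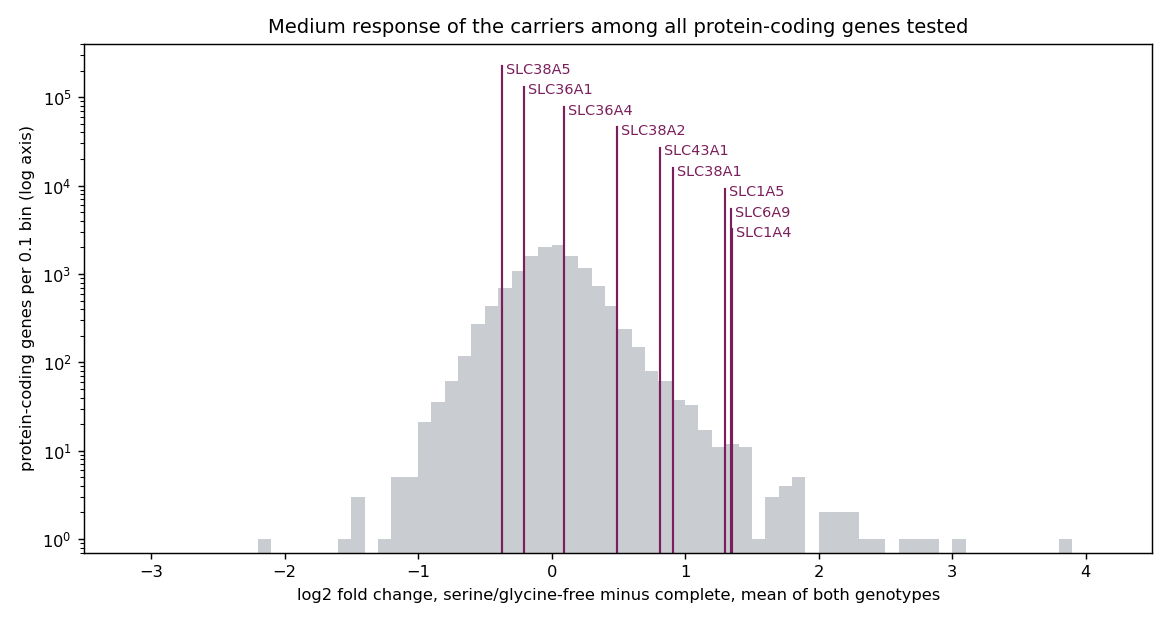
Histogram of the log2 fold change between serine/glycine-free and complete medium, mean of both genotypes, over the 13080 protein-coding genes tested (grey, bins of 0.1, log count axis), with the 9 members tested as vertical lines whose heights carry no value. SLC1A4, SLC6A9 and SLC1A5 at 1.35, 1.34 and 1.30 lie at the 99.3 percentile of all genes tested, and SLC36A4 and SLC36A1 within the body of the distribution.

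Promoter sequences were examined because 6 of these carriers were higher together. A table of RefSeq transcript starts (build GRCh38.p14), with 250 bases before and 50 after each start, holds 17 windows for the 10 genes. The letters TGATGNAA, the core of the composite element bound by dimers of C/EBP and ATF factors, were searched on both strands. They occur in 3.62% of all 35116 windows and in at least 1 window of 4.46% of genes, and here in 1 window each of SLC1A4, SLC1A5 and SLC38A1. The 3 matches are shown with their flanks, 5′ to 3′ on the gene's strand, the match in capitals.
SLC1A4, chr2:64989381-64989410, plus strand: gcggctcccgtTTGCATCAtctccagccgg
SLC1A5, chr19:46784893-46784922, minus strand: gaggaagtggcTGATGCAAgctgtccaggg
SLC38A1, chr12:46266502-46266531, minus strand: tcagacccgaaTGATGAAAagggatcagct

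The SLC1A4 match reads on the opposite strand and begins 7 bases before 1 of its 2 listed starts, the SLC1A5 match begins 97 bases before 1 of its 3 listed starts, and the SLC38A1 match begins 4 bases before 1 of its 2. The longer stretch before that SLC1A4 start is shown with the same match in capitals at its end, beside that of SLC6A9, a gene with a log2 fold change of like size whose single window holds no match.
SLC1A4, chr2:64989149-64989399, plus strand: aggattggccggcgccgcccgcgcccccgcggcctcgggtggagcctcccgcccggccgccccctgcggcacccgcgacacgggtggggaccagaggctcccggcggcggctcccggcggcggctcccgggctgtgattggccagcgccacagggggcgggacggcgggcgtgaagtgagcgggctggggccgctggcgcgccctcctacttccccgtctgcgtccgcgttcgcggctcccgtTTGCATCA
SLC6A9, chr1:44031463-44031712, minus strand: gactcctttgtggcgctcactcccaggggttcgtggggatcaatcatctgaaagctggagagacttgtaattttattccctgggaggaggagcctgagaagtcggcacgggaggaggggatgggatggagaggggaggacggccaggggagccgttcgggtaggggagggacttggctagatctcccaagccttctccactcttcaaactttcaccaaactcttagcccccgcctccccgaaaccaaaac

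The letters TGACGTNA of the cyclic AMP response element, which ATF factors also bind, occur in 3.01% of all windows and in 0 of the 17. The AP-1 letters TGANTCA occur in 7.71% of windows and here in 1 each of SLC38A1 and SLC36A4, and overlap no match of the first motif. A match is a run of letters, not a binding site, and gene-level FPKM does not show which start was used.

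The second question is whether the genotypes differ in these carriers. No member passed by limma in either medium. In complete medium 1 of 9 was higher (SLC6A9) and 0 lower at an unadjusted p under 0.05, against 1.92% and 2.86% of all genes tested, and in serine/glycine-free medium 0 were higher and 1 lower (SLC38A2), against 1.98% and 3.88%. At the adjusted threshold 0.0111% of genes were called higher and 0.0222% lower in complete medium, and 0.0111% and 0.0389% in serine/glycine-free medium. In complete medium 5 of 9 members were higher in both batches, against 20.4% of all genes, and 2 lower, against 25.7%. The 5 include SLC38A5, too low to be read (0.388 against 0 FPKM in batch 1). They also include SLC38A1, with a log2 difference of only 0.022 in batch 1. In serine/glycine-free medium 1 was higher in both, against 20.2%, and 4 lower, against 27.8%, among them SLC36A4 with only −0.0095 in batch 2. These comparisons use the same libraries as the medium comparisons above.

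SLC6A9, the glycine importer, was higher in knockout-labelled cells in all 4 pairs, by 2.08 and 2.36 times in complete medium of batches 1 and 2 and by 1.24 and 1.43 times in serine/glycine-free medium. Its log2 difference was 0.86 ± 0.21 in complete medium (adjusted p = 0.857) and 0.37 ± 0.21 in serine/glycine-free medium (adjusted p = 0.801). SLC38A2 was lower in knockout-labelled cells in all 4 pairs, at 0.661 and 0.655 times the wild-type level in serine/glycine-free medium and 0.781 and 0.888 times in complete medium. The log2 difference in serine/glycine-free medium was −0.60 ± 0.22 (adjusted p = 0.801). SLC43A1 was also lower in all 4, at 0.484 and 0.833 times the wild-type level in complete medium and 0.595 and 0.730 times in serine/glycine-free medium. Over all genes tested 8.34% were higher and 13.2% lower in knockout-labelled cells in all 4 pairs, close to the 1 and 2 of 9 members, so these counts are no result about the carriers. Without both knockout-labelled libraries of batch 2, each medium keeps 1 knockout-labelled library, so that side rests on batch 1 alone. The differences were then 0.74 for SLC6A9 in complete medium and −0.78 for SLC38A2 in serine/glycine-free medium. For SLC43A1 they were −0.75 and −0.77 in complete and serine/glycine-free medium.

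The batches differed for SLC36A1. In batch 2 it stood at 3.66 FPKM in knockout-labelled against 1.33 in wild-type cells in serine/glycine-free medium and at 5.12 against 1.66 in complete medium, 2.75 and 3.08 times as much. In batch 1 it stood at 3.57 against 4.18 and at 4.81 against 3.88, ratios of 0.853 and 1.24. The larger ratios belong to batch 2. Summed epithelial and mesenchymal markers differed between genotypes in both batches, in opposite directions, and any link of these ratios to them was not tested. Leaving out the knockout-labelled libraries of batch 2 rests the knockout-labelled side on batch 1 alone. The log2 difference was then 0.18 in complete medium (0.73 ± 0.38 with them) and −0.11 in serine/glycine-free medium (0.41 ± 0.38 with them). SLC36A4 was at 0.474 times the wild-type level in complete medium of batch 2 but at 1.01 times in batch 1.

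For SLC1A4, SLC1A5 and SLC38A1 neither genotype was higher in all 4 pairs. In serine/glycine-free medium the log2 difference of SLC38A1 was 0.03 with a 95% interval of −0.40 to 0.45 and that of SLC1A5 0.10 with an interval of −0.33 to 0.52. That of SLC1A4 was −0.45 with an interval of −1.22 to 0.32, and its values were 12.7 and 11.3 FPKM in knockout-labelled cells against 21.9 and 12.8 in wild type. Without the knockout-labelled libraries of batch 2 it was −0.91, with the knockout-labelled side resting on batch 1 alone. Differences of up to those bounds are not told apart from none by 2 libraries per group.

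**Figure D5:**
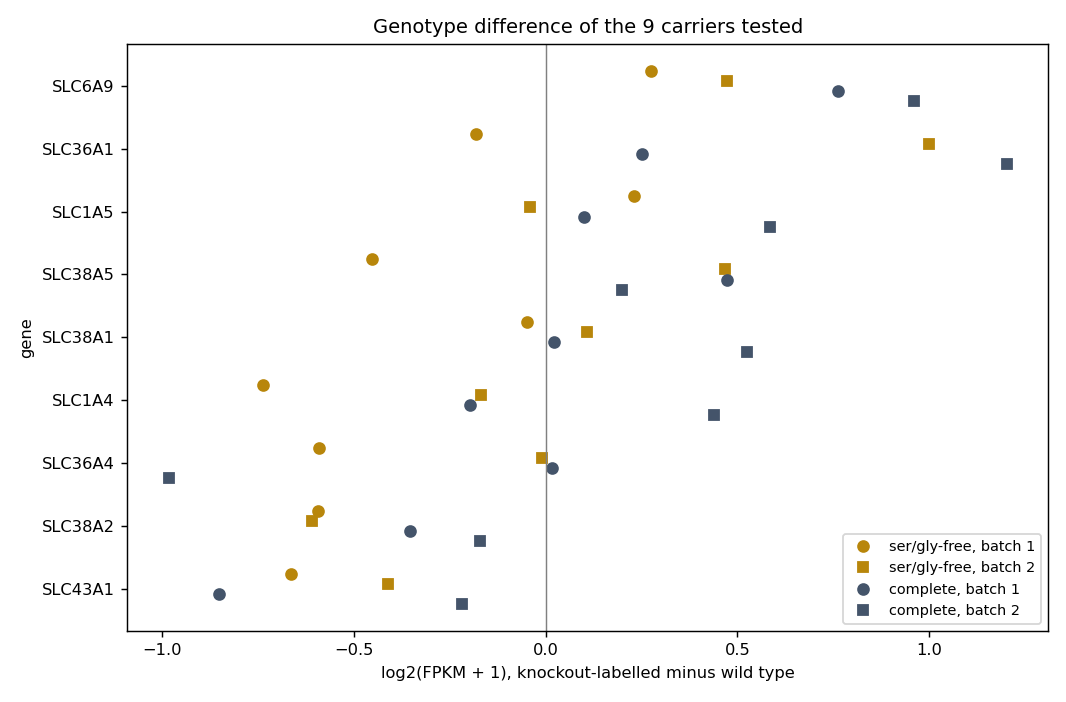
Difference of log2(FPKM + 1) between knockout-labelled and wild-type cells for the 9 members tested, 1 point per pair of libraries, coloured by medium and shaped by batch. All 4 points of SLC6A9 lie right of 0 and all 4 of SLC38A2 and SLC43A1 left of it, while the other 6 members have points on both sides.

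The third question is whether the medium response differs by genotype. By limma 0 members passed, and 0 had an unadjusted p under 0.05 in either direction, against 0.678% of all genes higher and 0.856% lower, while after adjustment 0.0278% of all genes were called higher and 0.0333% lower. In both batches the log2 fold change was lower in knockout-labelled cells for 5 of 9 members, SLC1A4, SLC6A9, SLC38A1, SLC38A2 and SLC36A1, against 25.8% of all genes tested, and higher for 0, against 21.5%. The 5 include SLC38A1 with a difference of only −0.072 in batch 1. They also include SLC36A1, whose sign turned when some single libraries were left out. SLC1A4 had folds of 1.79 and 3.02 in knockout-labelled cells against 2.63 and 5.12 in wild type of the same batches. For SLC6A9 they were 2.52 and 2.29 against 4.24 and 3.78, where the complete-medium level was the side that differed more between genotypes. The differences of the response were −0.57 ± 0.44 for SLC1A4 and −0.49 ± 0.30 for SLC6A9 on the log2 scale (adjusted p = 1.00 for both), with intervals of −1.66 to 0.52 and −1.21 to 0.24. Without the knockout-labelled libraries of batch 2 they were −0.88 and −0.45, with the knockout-labelled side resting on batch 1 alone. The estimates of SLC43A1 were 0.81 in both genotypes, with a difference of −0.0026 and an interval of −0.86 to 0.85.

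Other carriers of these families and the mitochondrial serine and glycine carriers give the setting. Of 43 listed, 25 were tested. Over both genotypes 1 was called higher, SLC7A11, the cystine/glutamate antiporter (2.19 ± 0.15, adjusted p = 0.0175), and 0 lower, with 6 higher and 0 lower at an unadjusted p under 0.05, against 6.16% and 3.87% of all genes. Their median log2 fold change was 0.033, beside 0.81 over the 9 members tested and 0.016 over all genes tested. Some of the 25 were low, such as SLC7A7 and SLC7A8, which did not exceed 1.29 and 1.46 FPKM. SLC7A5, a carrier of large neutral amino acids, had 1.55 ± 0.31 (limma, adjusted p = 0.265), above the estimate of every member. It was higher in serine/glycine-free medium in all 4 pairs, so a rise was not particular to the members. SLC7A1, a carrier of cationic amino acids, had 1.01 ± 0.17, and SLC3A2, the heavy chain that several SLC7 carriers need, 1.43 ± 0.25 (adjusted p = 0.189 and 0.212). Of the mitochondrial carriers, SLC25A38, which imports glycine, had 0.60 ± 0.11 (adjusted p = 0.233) and was higher in serine/glycine-free medium in all 4 pairs. SFXN1, the mitochondrial serine carrier, had −0.36 ± 0.15 (adjusted p = 0.512). Its relatives SFXN2 and SFXN3, added after their values were seen, had 0.07 ± 0.25 and −0.34 ± 0.20 (adjusted p = 0.969 and 0.627).

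The genes whose pattern across the 8 libraries was most like each member were taken as the 3 highest of 13080 Pearson correlations of log2(FPKM + 1) centred on the batch mean; they are descriptions and share libraries and scaling with the members. For SLC38A1 these were PSAT1 (0.9942), PCK2 (0.9932) and AARS (0.9919). For SLC1A5 they were TRIB3 (0.9889), SLC38A1 itself (0.9885) and MRPS30 (0.9872), and for SLC1A4 LIN7B (0.9949), SESN2 (0.9936) and NARS (0.9893). SLC6A9 lay nearest MTRR (0.9906), DNAJB12 (0.9879) and CEBPB (0.9869), and SLC43A1 nearest LRRFIP1 (0.9941), TOMM34 (0.9848) and GADD45A (0.9846). SLC38A2 lay nearest TUBGCP3 (0.9947), FRMD6 (0.9869) and ADTRP (0.9843), and SLC36A1 had CHML (0.9928), TJP3 (0.9875) and UBE2C (0.987). SLC36A4 lay nearest PRELID2 (0.9795), CHIC1 (0.9661) and AMPD3 (0.9648), and SLC38A5 nearest ZBTB33 (0.9498), MANBA (0.9383) and ATR (0.9252).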

How the data were processed

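Each batch has its own table of FPKM, made and deposited by the authors, with 4 libraries. The submitters' processing notes name hg19, TopHat, Cufflinks and Cuffdiff; their versions, settings and use of strand were not given in the sources used here. Gene loci are hg19, written 1-based; promoter windows are GRCh38.p14 and were not set against hg19 positions. An exact 0 can be a failed estimate.

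Genes at 1 FPKM or more in at least 2 libraries were tested, 17994 of 57884 and 9 of the 10 members. GENCODE 29 gave the type of 95.8% of tested genes, matched on Ensembl ID. Limma 3.58.1 in R 4.3.3 fitted log2(FPKM + 1), which understates folds of low genes, with 4 group means and the batch as a block, a trended prior, two-sided p and Benjamini-Hochberg adjustment over all genes tested (threshold 0.05; 3 residual and 2.97 prior degrees of freedom). Folds named as such are plain ratios of FPKM. Equal numbers mark cells treated together, per the series' text, so the batch block pairs libraries. Within-group deviations of libraries with the same number correlated at 0.650 to 0.775, which any difference between the tables would also give. The steps were tested on simulated data. Members and lists were chosen with earlier results of these data known. Named genes are ATF3, all members, up to 3 other carriers per direction and comparison with the smallest p, of which some are printed, and the 3 genes most like each member.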

Additional observations from a re-analysis of the deposited data

How the results depend on the processing

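Depth is unknown and each group has 2 libraries, so small differences cannot be told from none. Large ones mostly did not pass either, such as SLC1A4 at 1.64 in wild type (limma, adjusted p = 0.473). Of 20 alternatives, 12 changed the processing or the libraries together and 8 left out 1 library each. Leaving out both batch 2 libraries labelled knockout keeps 1 knockout-labelled library per medium, from batch 1. Over both genotypes 1 member was called, SLC1A5. With protein-coding genes only 3 were called (SLC1A5, SLC6A9 and SLC38A1), with a pseudocount of 5 again 1, and 0 with a pseudocount of 0.1, no filter, a mean of 1 FPKM or more, either scaling, no replicate block, a replicate block per genotype and batch, a prior without trend or without both batch 2 libraries labelled knockout. Leaving out any 1 library gave 0 to 0 calls. The cause was not tested. For SLC1A5 the adjusted p was 1.00 without the block and 0.0504 with the block per genotype and batch, where the fold change was the same. The block changed no other call of a member. Over all genes, 1 was called higher and 0 lower without the block, and 21 and 2 with the block per genotype and batch. The block per genotype and batch gives no genotype difference, a fit of only the groups compared gives no mean over genotypes and no difference of responses, and SLC38A5 is not tested at a mean of 1 FPKM or more. The other 5 comparisons had 0 calls under all alternatives run. The number of genes called over both genotypes was 20 higher and 4 lower, and 0 to 34 higher and 0 to 5 lower over the alternatives. Scaling moved the median of all genes by at most 0.052. The members' median over both genotypes lay between 0.53 and 0.96.

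Of 1038 member values recomputed, 970 kept direction and side of the threshold and 49 changed direction, none of which had passed. A changed filter, block or prior leaves a log2 fold change as it is. Only the value of SLC1A5 over both genotypes had passed before, and it lost its call in 17 of 19 alternatives. The count of 970 is thus no measure of stability. The 6 carriers higher in all pairs kept their direction in every medium comparison. Having been picked as higher in all pairs, they could not turn with a changed pseudocount, filter, block or prior, so this is no test. With a pseudocount of 0.1 the direction turned for SLC38A5 in the wild-type response (0.063) and between genotypes in serine/glycine-free medium (−0.44) and for SLC43A1 in the difference of responses (0.047). That of SLC43A1 also turned with either scaling (0.00587 and 0.015), and SLC36A4 in wild type with a pseudocount of 5 (−0.00927) and either scaling (−0.063 and −0.00665). Without both batch 2 libraries labelled knockout it turned for SLC36A4 in knockout-labelled cells (−0.38), over both genotypes (−0.19) and in the difference (−0.39), and between genotypes for SLC1A4 in complete medium (−0.028) and for SLC36A1 (−0.11), SLC38A1 (−0.10) and SLC38A5 (−0.12) in serine/glycine-free medium.

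With 1 library left out, signs also turned for the following ranges. Between genotypes in complete medium SLC1A4 ranged from −0.31 to 0.55 and SLC38A2 from −0.53 to 0.0051. In serine/glycine-free medium SLC1A5 ranged from −0.011 to 0.20, SLC36A1 from −0.039 to 0.86, SLC36A4 from −0.61 to 0.0097, SLC38A1 from −0.035 to 0.091 and SLC38A5 from −0.54 to 0.55. In the difference of responses SLC36A1 ranged from −0.77 to 0.13, SLC36A4 from −0.27 to 0.63, SLC38A5 from −0.88 to 0.22 and SLC43A1 from −0.29 to 0.28. In the medium response SLC36A1 ranged from −0.74 to 0.0022 in knockout-labelled cells, from −0.43 to 0.014 over both genotypes and from −0.50 to 0.40 in wild type. SLC36A4 ranged from −0.26 to 0.64 in knockout-labelled cells, from −0.13 to 0.32 over both genotypes and from −0.21 to 0.22 in wild type, and SLC38A5 in wild type from −0.75 to 0.34.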
